A study of Homo sapiens with 47 samples.

Results

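The SOX transcription factors of groups C, D and E were followed through the differentiation of WA09 (H9) cells, an established human embryonic stem cell line, into pre-neural progenitors and neural crest. The members were the genes named as SOXC (*SOX4*, *SOX11* and *SOX12*), SOXD (*SOX5*, *SOX6* and *SOX13*) and SOXE (*SOX8*, *SOX9* and *SOX10*). Each was found by its symbol, through the Ensembl identifier it has in GENCODE 29, which gave 9 genes of the 58051 in the tables. Bulk RNA-seq libraries from 47 samples were used. Of these, 35 were whole cultures from 3 differentiations, called r1 to r3. They were undifferentiated WA09 hESCs (t0), NMP-like cells (36h) and passages P1 to P10 of the PNP/NC culture, with 3 libraries for each time point and 2 for P9 (r1 and r2). The other 12 were fractions enriched at P5 and P8 by selective detachment with TrypLE express, an epithelial fraction (EPI, labelled PNPs) and a mesenchymal fraction (MES, labelled NC cells), with 3 libraries of each. The t0 cells had been grown in mTESR1, and every later sample in N2B27 without vitamin A, with the WNT activator CHIR-99021, rhFGF2, the retinoic acid receptor antagonist AGN193109 and the kinase inhibitor Y-27632. All samples derive from 1 cell line, and the fractions are enrichments rather than sorted cells.

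SOX proteins bind the minor groove of DNA through an HMG box and bend it. SOXC factors are found in progenitors that leave the cycle, and *SOX4* and *SOX11* activate neuronal genes such as *TUBB3* and *DCX*. SOXD proteins have a coiled coil and no known transactivation or repression domain of their own, so they act with partners: SOX5 and SOX6 help SOX9 to switch on cartilage matrix genes and can limit SOX10 in melanocytes and oligodendrocytes. SOXE factors specify neural crest. SOX9 acts early in crest and in cartilage, SOX10 maintains migratory crest and is needed for glia and melanocytes, and SOX8 overlaps with both.

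On GRCh38 the SOXC genes are *SOX4* (ENSG00000124766, chr6:21592768-21598619, plus strand), *SOX11* (ENSG00000176887, chr2:5692667-5701385, plus strand) and *SOX12* (ENSG00000177732, chr20:325595-330224, plus strand), each a single exon. The SOXD genes are *SOX5* (ENSG00000134532, chr12:23529500-24562544, minus strand), *SOX6* (ENSG00000110693, chr11:15966449-16739591, minus strand) and *SOX13* (ENSG00000143842, chr1:204073115-204127743, plus strand). The SOXE genes are *SOX8* (ENSG00000005513, chr16:981808-986979, plus strand), *SOX9* (ENSG00000125398, chr17:72121020-72126420, plus strand) and *SOX10* (ENSG00000100146, chr22:37970686-37987422, minus strand). *SOX5* and *SOX6* have long genes of 1033045 and 773143 bases. The HMG box is what the members share, and its coding sequence is also where reads of a gene could be taken for those of another. The first 60 coding bases of the box are shown for each gene from the GENCODE 29 transcripts on GRCh38, with capitals at the 35 bases that are the same in all 9 genes.
SOX4: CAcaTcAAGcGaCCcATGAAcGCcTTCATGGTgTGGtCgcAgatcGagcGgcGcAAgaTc
SOX11: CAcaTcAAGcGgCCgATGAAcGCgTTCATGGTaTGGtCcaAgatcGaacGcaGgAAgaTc
SOX12: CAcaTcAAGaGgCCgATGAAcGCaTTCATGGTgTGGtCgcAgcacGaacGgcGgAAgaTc
SOX5: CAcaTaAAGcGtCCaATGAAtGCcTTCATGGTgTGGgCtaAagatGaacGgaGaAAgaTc
SOX6: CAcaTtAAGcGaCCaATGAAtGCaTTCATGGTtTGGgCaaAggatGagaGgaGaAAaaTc
SOX13: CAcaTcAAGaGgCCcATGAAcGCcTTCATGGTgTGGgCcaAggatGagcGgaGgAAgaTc
SOX8: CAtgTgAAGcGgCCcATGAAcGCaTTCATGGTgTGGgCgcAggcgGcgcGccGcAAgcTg
SOX9: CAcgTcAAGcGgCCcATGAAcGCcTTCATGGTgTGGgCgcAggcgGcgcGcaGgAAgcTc
SOX10: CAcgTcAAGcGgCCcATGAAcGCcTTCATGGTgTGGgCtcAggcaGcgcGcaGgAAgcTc
These bases lie at chr6:21594706-21594765 and chr2:5692863-5692922 (plus strand), chr20:326039-326098 (plus), chr12:23543260-23543319 and chr11:15989046-15989105 (minus), chr1:204123696-204123755 and chr16:982223-982282 (plus), chr17:72121701-72121760 (plus) and chr22:37983419-37983478 (minus), each within 1 coding exon. Over the whole box, genes of the same group shared 80.2% to 89.5% of the coding bases, and genes of different groups 54.4% to 73.8%. Among all annotated transcripts of the members, the longest exact run that any of the 36 gene pairs shared was 45 bases, and no pair shared a run as long as a 75-base read. *SOX6* (chr11:15966449-16739591) and *SOX10* (chr22:37970686-37987422), both on the minus strand, overlap exons of abundant genes on the opposite strand. *SOX6* shares 219 of 19636 exonic bases with *C11orf58* (213 to 362 TPM over the libraries), and *SOX10* shares 89 of 3710 with *POLR2F* (81.5 to 140 TPM). The strand setting of the counting is not given in the sources used here, so reads in those bases cannot be assigned to a strand.

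Library totals ran from 13029462 to 64082803 expected counts, with a median of 47292188. Levels are given as TPM (a level per transcript length, scaled to the same total in every library), and changes as log2 fold changes of normalized counts with their standard error (SE). A gene was called when the edgeR quasi-likelihood test gave a Benjamini-Hochberg FDR under 1% over all genes, the fold was at least 2 and the mean was at least 100 normalized counts. The differentiations were a block in the fit. The summed level of 5 pluripotency genes was 3960 to 4490 TPM at t0 and 81.1 to 689 TPM at P8. Some libraries stood apart. P10.r1 was unlike P10.r2 and P10.r3 in several members, P1.r1 was unlike the other P1 libraries in *SOX9* and *SOX13*, and P8.r3 was above the other P8 libraries in *SOX4* and *SOX10*. *SOX2*, a marker of the epithelial progenitors, moved with the first pair, at 214 TPM in P10.r1 against 0.50 and 0.71 TPM in P10.r2 and P10.r3, and at 80.7 TPM in P1.r1 against 2.77 and 3.03 TPM. Its part in the results was not tested. Several, but not all, member values that moved with these libraries are given beside the results or in the last section. The gene lists were tested with all libraries only. Where groups of libraries are said not to overlap, the share of all genes that did the same is not given. Such statements describe the values and have no background. In bulk RNA a smaller share of cells with a gene on cannot be told apart from less RNA per cell.

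The SOXD genes made up 3 of the 4 members called between stem cells and P8, and they did not go in the same direction. *SOX13*, the SOXD member known from T cells and early embryos, was the one at high level in hESCs. It stood at 79.7, 81.1 and 79.8 TPM at t0, at 36.0, 24.6 and 17.3 TPM at P8, and at 6.34 and 7.49 TPM at P9. The t0 and P8 libraries did not overlap, and neither did P8 and P9. *SOX5*, a partner of SOX9 that is also expressed in neural progenitors, stood at 1.5, 1.09 and 1.27 TPM at t0 and at 35.2, 51.9 and 59.5 TPM at P8. *SOX6*, its closest relative, stood at 0.16, 0.15 and 0.08 TPM at t0, from 17 to 19 reads a library, and at 13.1, 20.9 and 15.7 TPM at P8. For both, every P8 library was above every t0 library.

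**Figure D1:**
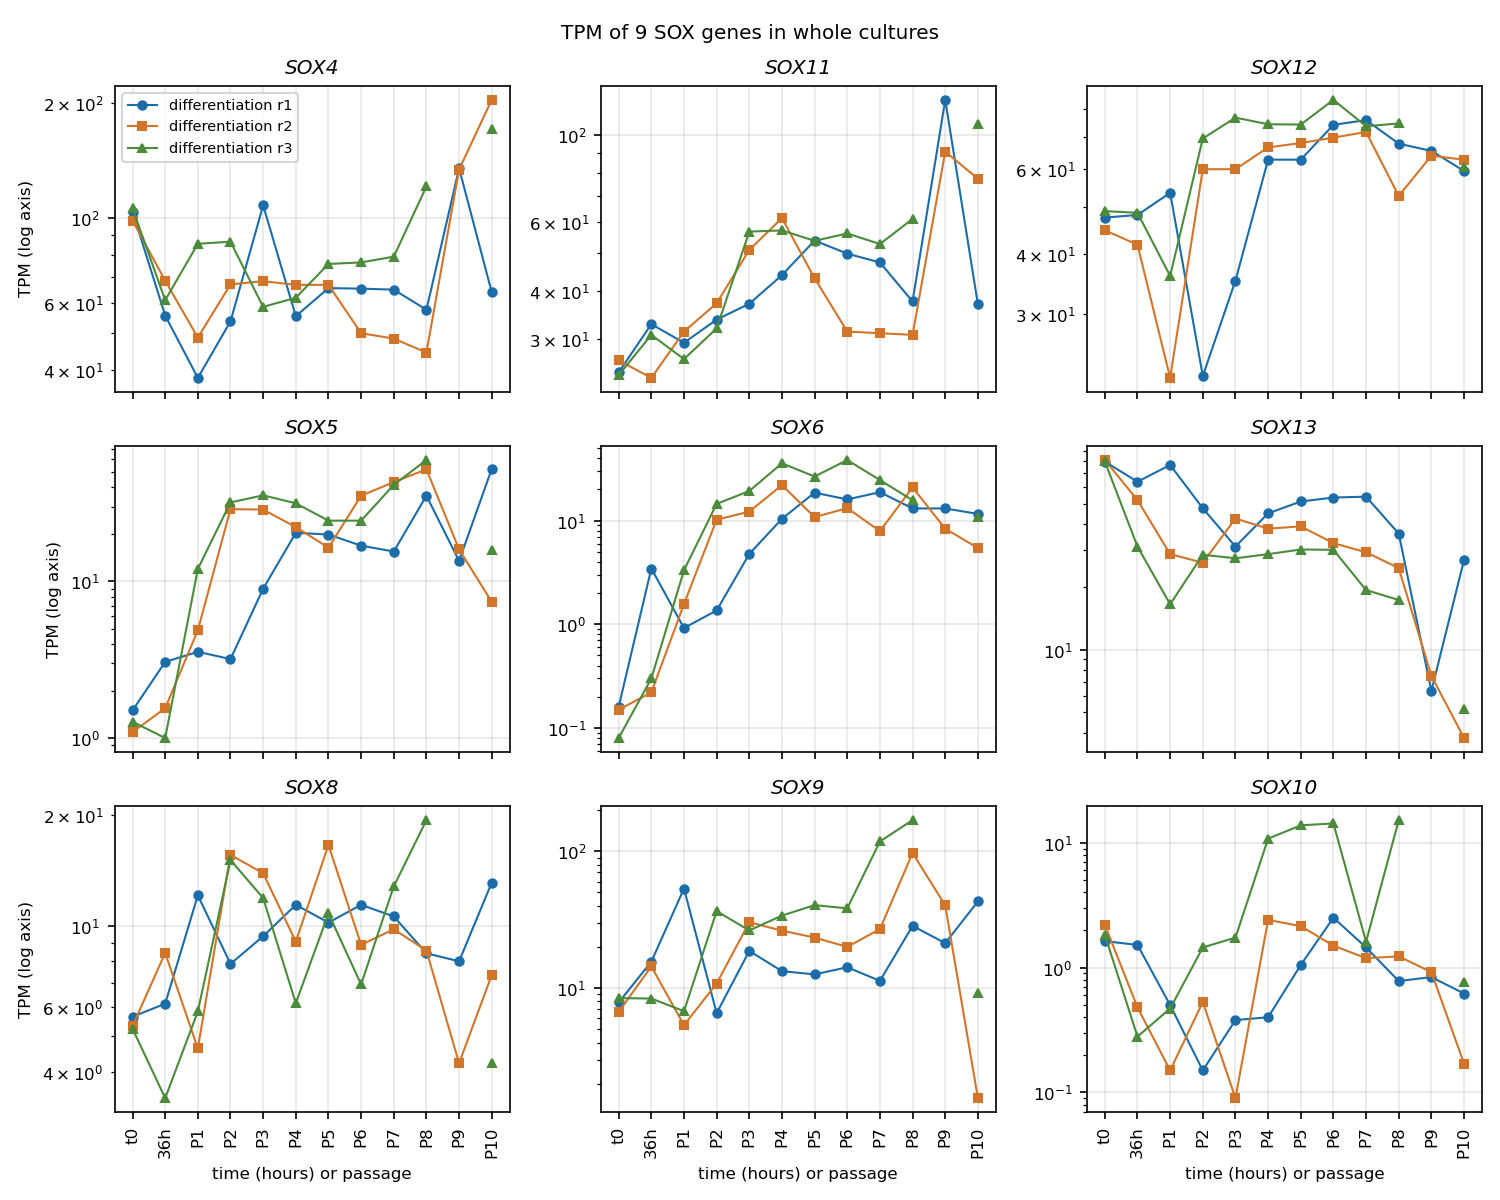
TPM on a log axis (y) by time or passage (x) for each gene, with 1 line for each differentiation and no P9 library of r3. *SOX5* and *SOX6* are at most 1.5 and 0.16 TPM at t0, *SOX13* lies highest at t0 (79.7 to 81.1 TPM), and P10.r1 stands away from P10.r2 and P10.r3 for *SOX5*, *SOX9* and *SOX13*.

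Between t0 and P8, 4 of the 9 genes were called, 3 higher and 1 lower, where 7.38% of the 21649 genes tested were called higher and 8.03% lower. *SOX6* rose by a log2 fold change of 6.33 (SE 0.79, n = 3 and 3, 80.3-fold, edgeR adjusted p = 7.4e-07) and *SOX5* by 5.46 (SE 0.84, 44.0-fold, edgeR adjusted p = 1.2e-05). *SOX13* fell by 1.87 (SE 0.42, 3.66-fold, edgeR adjusted p = 0.00067). *SOX9* rose by 3.42 (SE 0.99, 10.7-fold, edgeR adjusted p = 0.0061). Each of the 4 moved the same way in 3 of 3 differentiations. The calls of *SOX9* and *SOX13* were lost when differentiation r2 or r3 was left out (edgeR adjusted p of 0.079 and 0.071 for *SOX9*, 0.011 and 0.049 for *SOX13*). The *SOX9* call was also lost without P8.r3 alone (log2 3.13, edgeR adjusted p = 0.02) and the *SOX13* call without the block (log2 -1.76, edgeR adjusted p = 0.012). The remaining members did not pass. *SOX8* had a log2 difference of 1.11 (SE 0.41, edgeR adjusted p = 0.028), *SOX4* of -0.69 (SE 0.33), *SOX11* of 0.58 (SE 0.26), *SOX12* of 0.30 (SE 0.26) and *SOX10* of 0.20 (SE 0.90), which was -0.82 without P8.r3. Without that library *SOX8* was at 0.44, *SOX4* at -1.08 and *SOX11* at 0.35, none of them called. The median over the members was 0.58, the *SOX11* value, and over all genes tested it was -0.01.

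**Figure D2:**
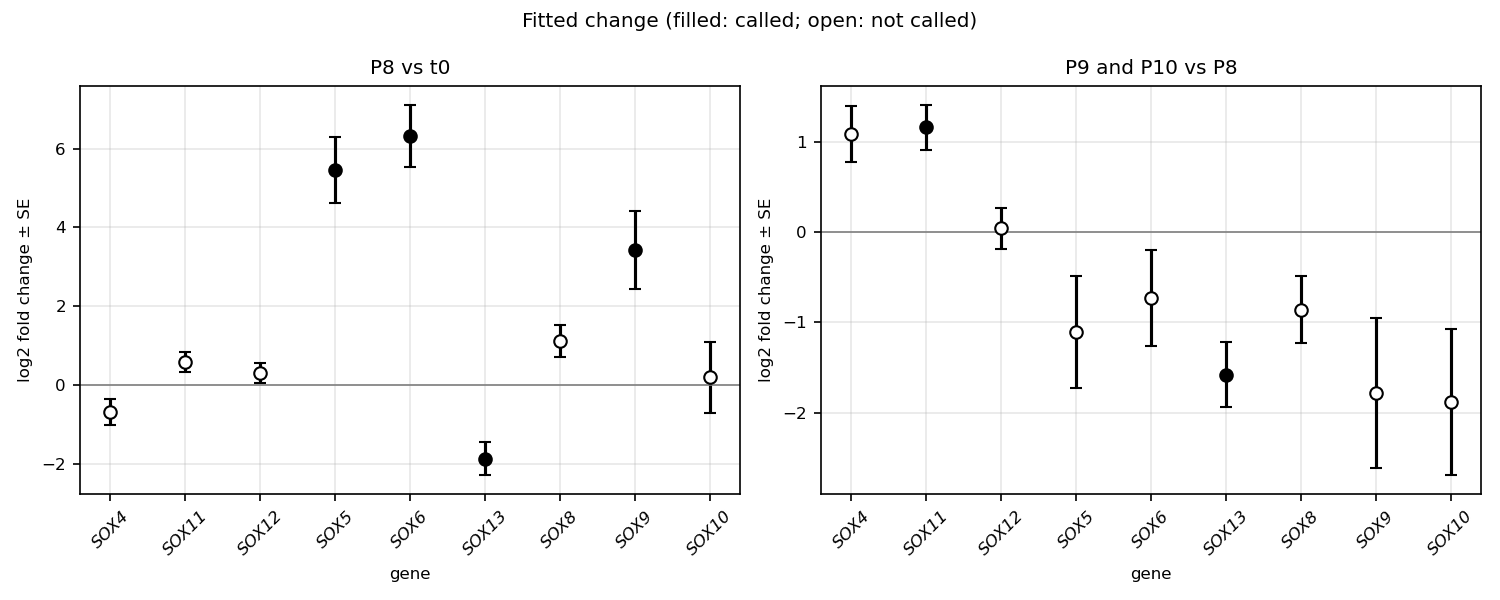
Fitted log2 fold change (y) of each gene (x) with bars of 1 SE, for P8 against t0 (left) and for P9 and P10 against P8 (right), with filled points where the gene was called. *SOX6* (6.33) and *SOX5* (5.46) lie far above zero on the left, and *SOX11* (1.16) and *SOX13* (-1.58) are the filled points on the right.

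The makeup of the SOXD group followed from these levels. *SOX13* made up 98.3% of the summed SOXD TPM at t0 (range over 3 libraries 98.0% to 98.5%), 51.2% at P3 (33.4% to 69.4%) and 28.9% at P8 (18.7% to 42.7%). *SOX5* went from 1.58% at t0 (1.32% to 1.84%) to 53.1% at P8 (41.7% to 64.3%). The summed SOXD level was close at both ends, 81.6 ± 0.667 TPM (SD, n = 3) at t0 and 91.4 ± 6.62 TPM (SD, n = 3) at P8. It was 32.4 ± 0.764 TPM (SD, n = 2) at P9. No test was made of these shares or sums.

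**Figure D3:**
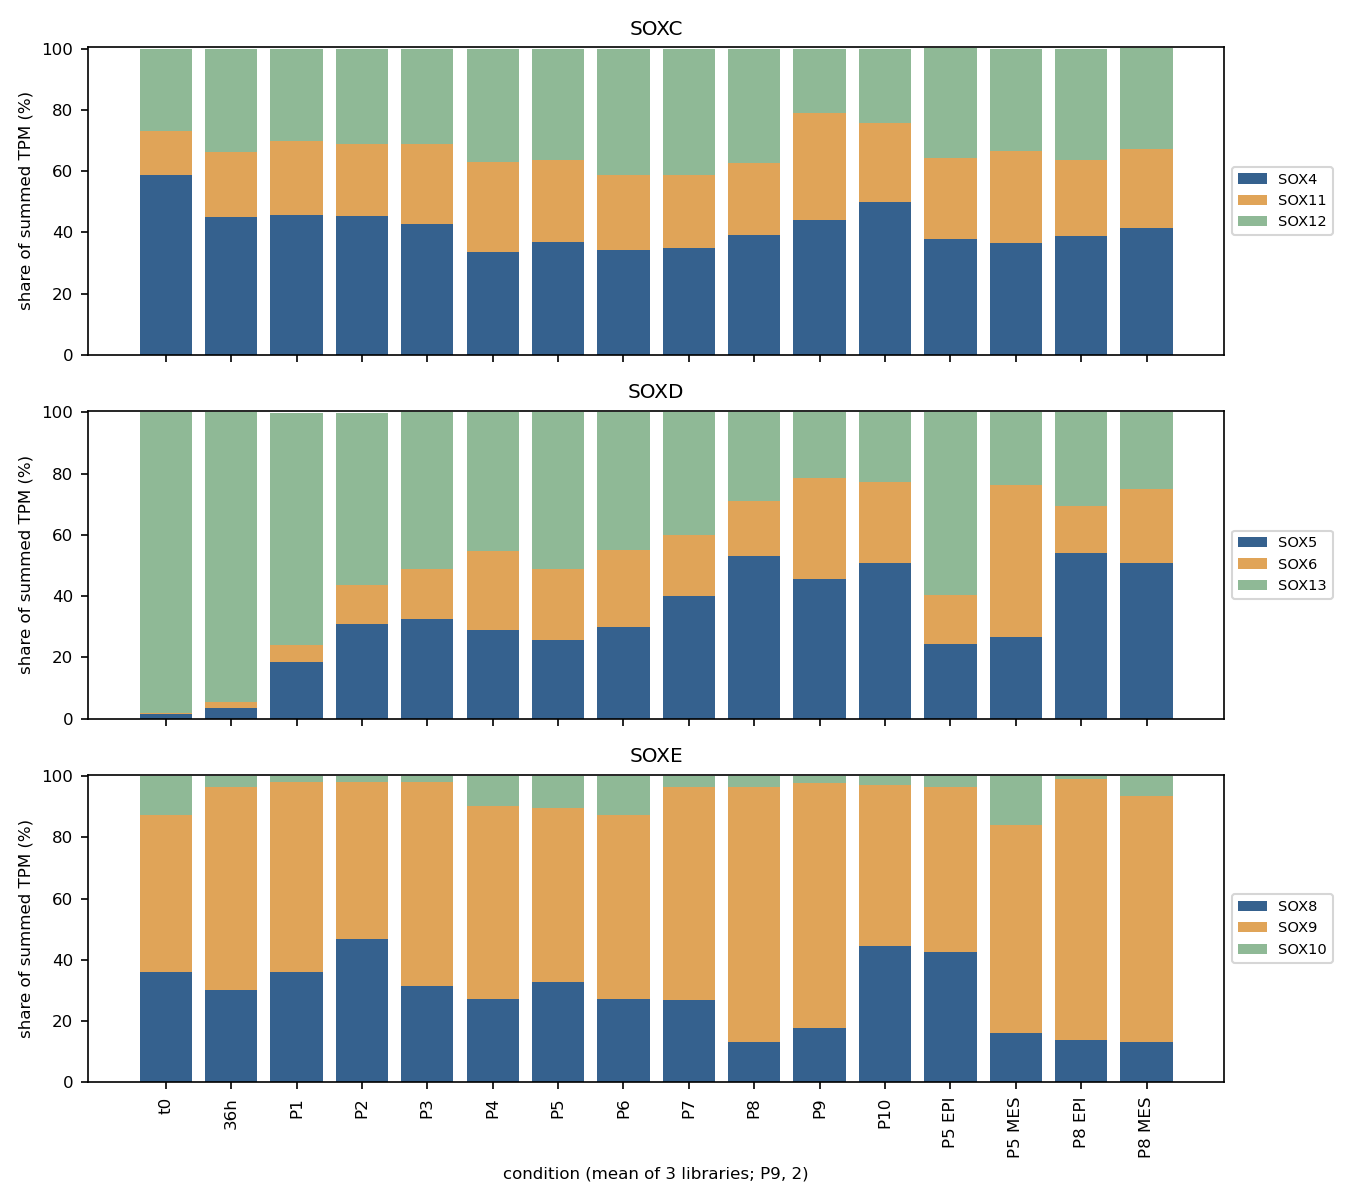
Mean share of the summed TPM of each SOX group (y, percent) held by each gene, in every condition (x). In SOXD the share of *SOX13* is 98.3% at t0 and 28.9% at P8, with *SOX5* at 53.1% at P8, while *SOX9* holds 83.2% of SOXE at P8.

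Consecutive steps were then tested. From t0 to 36h no member was called, and 1.33% of all genes were called higher and 1.39% lower. Of the members, 2 had an unadjusted edgeR p under 0.05, as had 5635 of the 21649 genes tested. Neither DESeq2, which called 846 of the 21649 genes tested, nor limma called any member. The 2 members were *SOX4* (log2 -0.77, SE 0.33, edgeR adjusted p = 0.14) and *SOX13* (log2 -0.84, SE 0.41, edgeR adjusted p = 0.19), and both were lower in 3 of 3 differentiations. *SOX4* was at 104, 98.5 and 106 TPM at t0 and at 55.5, 68.5 and 60.9 TPM at 36h, so the groups did not overlap. The *SOX6* value of 36h.r1, 3.45 TPM, rests on 40 expected counts and a short estimated transcript, and the other 36h libraries were at 0.22 and 0.30 TPM.

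From 36h to P1 no member was called by edgeR, where 0.471% of all genes were called higher and 0.73% lower. 2 members had an unadjusted p under 0.05, as had 5056 of the 21649 genes tested. DESeq2 called 1 member (and 2.59% of all genes) and limma none. *SOX6* came nearest, with a log2 difference of 2.84 (SE 0.71, edgeR adjusted p = 0.016). It was called, at 4.37 (edgeR adjusted p = 2.8e-05), when differentiation r1 was left out, and at 3.31 (edgeR adjusted p = 0.0028) without the P1.r1 library, fits that called 4.25% and 3.76% of all genes. *SOX5* was called as well when r1 was left out, at 3.09 (edgeR adjusted p = 0.00021), but not without P1.r1 alone (2.23, edgeR adjusted p = 0.062). Neither was called with r2 or r3 left out. *SOX6* was then at 2.25 and 1.98 (edgeR adjusted p of 0.41 and 0.32). *SOX5*, at 1.82 with all libraries, was at 1.51 and 0.8 (edgeR adjusted p of 0.6 and 0.73). On TPM, limma gave 0.53 for *SOX6* (limma adjusted p = 0.66). The P1 libraries were at 3.55, 4.87 and 12.0 TPM for *SOX5* and at 0.92, 1.57 and 3.32 TPM for *SOX6*, with r1 the lowest of each. In P1.r1 *SOX13* was at 76.8 TPM, near the t0 level, against 28.7 and 16.5 TPM in P1.r2 and P1.r3, and *SOX9* was at 53.4 TPM against 5.36 and 6.78 TPM.

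From P1 to P3 no member was called by edgeR, where 0.637% of all genes were called higher and 0.462% lower. 3 members had an unadjusted p under 0.05, as had 4590 of the 21649 genes tested. DESeq2 called 1 member (and 2.36% of all genes) and limma none. *SOX6* again came nearest (log2 2.71, SE 0.64, edgeR adjusted p = 0.013) and was higher in 3 of 3 differentiations. Without differentiation r1, *SOX6* (2.63, edgeR adjusted p = 0.00017), *SOX5* (1.93, edgeR adjusted p = 0.0027) and *SOX12* (1.13, edgeR adjusted p = 0.00023) were called, with 3.67% of all genes. Without P1.r1 alone none was called, at 2.29 for *SOX6* (edgeR adjusted p = 0.042), 1.56 for *SOX5* (0.26) and 0.95 for *SOX12* (0.019), with 1.16% of all genes. With all libraries *SOX12* was at 0.49 (edgeR adjusted p = 0.28), and it was at 0.16 without r2 and 0.23 without r3. *SOX9* was at 0.01 with P1.r1 and at 2.20 (edgeR adjusted p = 0.17) without it. *SOX5* was at 3.19, 28.9 and 31.9 TPM at P2 and at 20.4, 22.2 and 31.5 TPM at P4, so that r1 was the low library at P2.

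Few genes of any kind were called between P3 and P8. No member was called from P3 to P5 or from P5 to P8. Of all genes, 0.00924% and 0.00462% were called higher and lower from P3 to P5, and 0.00462% each from P5 to P8. An unadjusted edgeR p under 0.05 was found for 1541 of the 21649 genes tested from P3 to P5 and 2873 from P5 to P8. DESeq2 and limma called no member in these comparisons. Of all genes, DESeq2 called 55 from P3 to P5 and 145 from P5 to P8. In each comparison 1 member had an unadjusted edgeR p under 0.05. From P3 to P5 it was *SOX10* (log2 2.86, SE 0.94, edgeR adjusted p = 0.37, higher in 3 of 3 differentiations). From P5 to P8 it was *SOX9* (log2 1.98, SE 0.93, edgeR adjusted p = 0.36, higher in 3 of 3), which was at 12.6, 23.4 and 40.4 TPM at P5 and at 28.5, 97.1 and 169 TPM at P8. These ranges overlapped, and r1 was the lowest and r3 the highest at both passages.

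*SOX10*, the marker of migratory crest, was high in 1 differentiation. In r3 it was at 10.8, 13.8 and 14.3 TPM at P4, P5 and P6, at 1.61 TPM at P7 and at 15.2 TPM at P8. In r1 and r2 it stayed between 0.40 and 2.51 TPM over the same passages. At t0 it was at 1.63, 2.20 and 1.83 TPM. Genes of glia and melanocytes that SOX10 is known to regulate were then counted. Of 15 such genes 14 were tested between t0 and P8, and 3 were called higher and 1 lower, against 7.38% and 8.03% of all genes, with a median log2 difference of 1.99. *MITF*, the master regulator of melanocytes (log2 6.30, SE 0.81, edgeR adjusted p = 1.1e-06), *TYRP1*, a pigment enzyme (log2 6.00, SE 1.40, edgeR adjusted p = 0.001), and *PMP22*, a myelin protein (log2 3.60, SE 0.65, edgeR adjusted p = 8.5e-05), rose. *RET*, a receptor of enteric crest, fell by 5.33 (SE 1.03, edgeR adjusted p = 0.00017), and 1 lower of 14 is near the background.

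*SOX9* had the highest TPM of the SOXE genes in 43 of 47 libraries. *SOX8* was above it in P2.r1, P2.r2, P10.r2 and P5 EPI r1. *SOX9* made up 51.1% of SOXE TPM at t0 (47.1% to 54.4%) and 83.2% at P8 (75.6% to 90.8%). Of 13 cartilage matrix genes that SOX9 regulates with SOX5 and SOX6, 12 were tested between t0 and P8, and 2 were called higher and 1 lower, with a median of -0.15. Of all genes 7.38% were called higher and 8.03% lower, so that 1 lower of 12 is near the background. *COL2A1*, the main cartilage collagen (log2 4.32, SE 0.72, edgeR adjusted p = 3e-05), and *COL11A1* (log2 2.62, SE 0.49, edgeR adjusted p = 0.00013) rose, and *CNMD*, chondromodulin, fell by 8.54 (SE 0.84, edgeR adjusted p = 2.4e-08). *ACAN*, the cartilage proteoglycan, was between 0.08 and 0.54 TPM at P8. Of 13 neural crest factors all were tested, and 8 rose and none fell, against 7.38% and 8.03% of all genes, with a median of 6.24. The largest were *TFAP2B* (log2 11.83, SE 1.75, edgeR adjusted p = 7.1e-06), *PAX3* (9.39, SE 0.70, edgeR adjusted p = 4.5e-10), *MSX1* (8.57, SE 0.88, edgeR adjusted p = 4.5e-08) and *TWIST1* (8.40, SE 1.17, edgeR adjusted p = 3.3e-06). For all of these lists the median over all genes tested was -0.01. The lists were chosen with earlier results of these data known. The paper already names *TFAP2B*, *TWIST1* and *MITF* among the top genes of its latest group of libraries. The counts are thus a description and not an independent test.

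Part of the list changes, which carry the same limit, came early. From t0 to 36h, 3 of the 13 neural crest factors were called higher and none lower (median log2 2.33), where 1.33% of all genes were called higher and 1.39% lower. They were *MSX1* at 7.19 (SE 0.84, edgeR adjusted p = 3.3e-06), *MSX2* at 4.51 (SE 0.93, edgeR adjusted p = 0.0023) and *SNAI2*, a repressor of epithelial genes, at 4.37 (SE 0.86, edgeR adjusted p = 0.0016). In the same step the cartilage gene *COL11A2* fell by 2.29 (SE 0.53, edgeR adjusted p = 0.0055), and the neuronal genes *ELAVL2* and *DPYSL3* fell by 2.10 (SE 0.48, edgeR adjusted p = 0.0047) and 1.69 (SE 0.34, edgeR adjusted p = 0.0017). From P1 to P3, 4 of the 13 crest factors were called higher and none lower (median 2.60), against 0.637% and 0.462% of all genes. They were *ZIC1* (log2 5.27, SE 1.11, edgeR adjusted p = 0.0064), *TWIST1* (4.71, SE 0.90, edgeR adjusted p = 0.0031), *ETS1* (3.57, SE 0.65, edgeR adjusted p = 0.0024) and *PAX3* (2.37, SE 0.50, edgeR adjusted p = 0.0061). *CNMD* fell by 3.86 (SE 0.71, edgeR adjusted p = 0.0025) in that step. The P1 group holds P1.r1. Genes of other lineages rose from t0 to 36h as well. Among the endoderm markers *GATA6* (log2 10.28, SE 1.56, edgeR adjusted p = 0.00016) and *GATA4* (8.44, SE 1.38, edgeR adjusted p = 0.00061) were called, and the sum of the 10 paraxial mesoderm genes went from 7.27 to 9.61 TPM at t0 to 9.17 to 651 TPM at 36h. Their part in the results was not tested.

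*SOX8* ran from 3.39 TPM (36h.r3) to 19.4 TPM (P8.r3), with a median of 8.87 TPM over 47 libraries, and no comparison called it at an FDR of 1%. At an FDR of 5% it was called between t0 and P8 (log2 1.11, edgeR adjusted p = 0.028). In the order of its 12 whole-culture means no neighbouring conditions were separate beyond their ranges.

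The SOXC genes were on in every library. *SOX4* ran from 38.1 TPM (P1.r1) to 204 TPM (P10.r2), *SOX11* from 23.9 TPM (36h.r2) to 123 TPM (P9.r1) and *SOX12* from 22.1 TPM (P1.r2) to 83.6 TPM (P6.r3). *SOX12*, the weakest activator of the group, was called in no comparison that kept all libraries, and from P4 to P10 its whole-culture libraries lay between 52.8 and 83.6 TPM. Of 12 neuronal genes taken as SOXC targets or early neuronal genes, all were tested between t0 and P8, and 2 were called higher and 1 lower, with a median of 0.19. These counts stand against 7.38% and 8.03% of all genes, and 1 lower of 12 is near that. *NCAM1*, a neural adhesion molecule (log2 3.03, SE 0.75, edgeR adjusted p = 0.0017), and *INA*, a neuronal intermediate filament (log2 1.77, SE 0.36, edgeR adjusted p = 3e-04), rose, and *DPYSL3*, a growth cone protein, fell by 2.47 (SE 0.35, edgeR adjusted p = 3.7e-06).

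At the last passages *SOX11* rose and *SOX13* fell. Both calls were kept without P10.r1 and lost without P8.r3, without r2 or r3, or without the block. *SOX11* was at 37.5, 30.8 and 61.0 TPM at P8, at 123 and 90.7 TPM at P9 and at 36.9, 77.3 and 107 TPM at P10. *SOX4* was at 57.5, 44.4 and 121 TPM at P8, at 135 and 134 TPM at P9 and at 63.9, 204 and 171 TPM at P10. *SOX13* was at 26.9, 3.77 and 5.18 TPM at P10. For each of the 3 genes P10.r1 lay within the P8 range, and the other 4 late libraries lay outside it. The sum of the 8 epithelial progenitor markers was 196 to 776 TPM at P8, 21.2 to 27.2 TPM at P9 and 8.60 to 457 TPM at P10, and that of the 5 pluripotency genes was 81.1 to 689, 4.85 to 11.9 and 9.48 to 244 TPM. The sum of the 13 neural crest factors was 487 to 1230 TPM at P8, 2320 to 2650 TPM at P9 and 640 to 2530 TPM at P10, and that of the 5 endothelial genes 2.53 to 13.6, 15.9 to 20.3 and 5.70 to 16.1 TPM. The part of these markers in the results was not tested.

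Of the 9 genes 2 were called, 1 higher and 1 lower, where 0.781% of all genes were called higher and 0.467% lower. *SOX11* rose by 1.16 (SE 0.25, n = 5 and 3, 2.23-fold, edgeR adjusted p = 0.0062) and *SOX13* fell by 1.58 (SE 0.36, 2.98-fold, edgeR adjusted p = 0.0089). *SOX4* had a log2 difference of 1.08 (SE 0.31, edgeR adjusted p = 0.03), *SOX9* of -1.78 (SE 0.83, edgeR adjusted p = 0.17), *SOX10* of -1.88 (SE 0.81, edgeR adjusted p = 0.14), *SOX5* of -1.11 (SE 0.62, edgeR adjusted p = 0.26), *SOX8* of -0.86 (SE 0.37, edgeR adjusted p = 0.14), *SOX6* of -0.73 (SE 0.53, edgeR adjusted p = 0.41) and *SOX12* of 0.04 (SE 0.23, edgeR adjusted p = 0.95). Without P8.r3 *SOX10* was at -0.85 (edgeR adjusted p = 0.60) and *SOX8* at -0.22 (edgeR adjusted p = 0.78). Without P10.r1 *SOX5* was at -1.82 (edgeR adjusted p = 0.018) and *SOX6* at -1.1 (edgeR adjusted p = 0.14). With differentiation r1 left out *SOX5* was called at -1.93 (edgeR adjusted p = 0.0012) and *SOX9* at -2.99 (edgeR adjusted p = 0.0039). DESeq2 called 3 members and 709 of the 21649 genes tested, with *SOX4* among the 3 members (DESeq2 adjusted p = 0.0059). The median over the members was -0.86, which is the *SOX8* value, against -0.02 over all genes. 

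The number of members called changed with the libraries kept and with the block. Without P10.r1, 4 genes were called, *SOX11* (log2 1.31, edgeR adjusted p = 5.8e-05), *SOX13* (-2.05, edgeR adjusted p = 3e-05), *SOX4* (1.25, edgeR adjusted p = 0.0019) and *SOX9* (-2.78, edgeR adjusted p = 0.0086), in a fit that called 4.64% of all genes. Without P8.r3 none was called (*SOX11* 1.38, edgeR adjusted p = 0.011; *SOX13* -1.57, edgeR adjusted p = 0.028), with 0.354% of all genes. Without the block none was called either, at 1.10 for *SOX11* (edgeR adjusted p = 0.024) and -1.40 for *SOX13* (edgeR adjusted p = 0.092). That fit called 31 of the 21649 genes, against 270 with the block. Without differentiation r2 they were 1.07 and -1.66 (edgeR adjusted p of 0.17 and 0.13), and without r3 1.23 and -1.47 (0.10 and 0.17), so the differences stayed near their size while the calls were lost. *SOX9* was at 21.3 and 40.3 TPM at P9 and at 43.0, 1.57 and 9.16 TPM at P10, so the lowest and the highest late values were both P10 libraries. With all libraries, which called 0.781% of all genes higher and 0.467% lower, 1 of the 13 neural crest factors was called, *MSX2*, which rose by 4.33 (SE 0.76, edgeR adjusted p = 0.0022). Of the cartilage, glial and neuronal genes none was called.

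The fractions were then compared. The MES and EPI libraries differed in the epithelial progenitor markers as their labels say, with a sum over 8 genes of at most 290 TPM in MES and of 539 to 805 TPM in EPI at P5. At P8 the ranges overlapped, 60.2 to 496 TPM in MES and 212 to 724 TPM in EPI. Markers of other lineages were summed as well. The sum of 6 endoderm genes was 19.7 to 24.0 TPM in P5 MES and 24.4 to 25.3 TPM in P5 EPI, and 13.6 to 87.5 TPM in P8 MES and 9.76 to 50.2 TPM in P8 EPI. The sum of 5 endothelial genes was 4.35 to 6.52 TPM in P5 MES and 1.13 to 2.60 TPM in P5 EPI (6.35 to 21.6 and 1.70 to 15.2 TPM at P8). Of the endothelial genes, *TEK* had a log2 difference between the P5 fractions of 2.05 (edgeR adjusted p = 0.11) and *ERG* of 1.62 (edgeR adjusted p = 0.28). *CDH5* was at 0.54 (edgeR adjusted p = 0.76), *KDR* at -0.02 (edgeR adjusted p = 0.99) and *PECAM1* at -0.98 (edgeR adjusted p = 0.37). *CDH5*, an endothelial cadherin, was at most 0.05 TPM in the 6 P5 libraries. The sum of 10 paraxial mesoderm genes was 7.01 to 12.4 TPM in P5 MES and 3.58 to 8.30 TPM in P5 EPI (10.1 to 16.3 and 3.56 to 11 TPM at P8). The sum of 4 skeletal muscle genes reached 14.1 TPM at most in a fraction. Their part in the results below was not tested.

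*SOX10*, *SOX6* and *SOX9* were higher and *SOX13* was lower in every P5 MES library than in the EPI library of its differentiation. *SOX10* was at 3.69, 7.67 and 24.1 TPM in MES and at 0.54, 0.83 and 2.49 TPM in EPI for r1, r2 and r3, so the fractions did not overlap. *SOX6* was at 53.5, 34.1 and 42.0 TPM in MES and at 10.8, 10.6 and 18.2 TPM in EPI, again with no overlap. *SOX13* was at 26.0, 20.8 and 14.6 TPM in MES and at 60.7, 43.0 and 44.1 TPM in EPI, also apart. How many of all genes were apart in this way is not given. *SOX9* was at 21.8, 40.5 and 67.6 TPM in MES and at 9.06, 19.0 and 31.1 TPM in EPI. Its ranges overlapped between differentiations, but the log2 ratio of the fractions was 1.24, 1.13 and 1.17 in r1, r2 and r3. 

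None of these 4 differences passed the FDR of 1%, and no gene of the 18924 tested did in this fit (0% called higher and 0% lower). The fitted log2 differences were 3.10 for *SOX10* (SE 0.41, n = 3 and 3, 8.58-fold, edgeR adjusted p = 0.014), 1.62 for *SOX6* (SE 0.21, 3.06-fold, edgeR adjusted p = 0.014), -1.31 for *SOX13* (SE 0.18, 2.47-fold, edgeR adjusted p = 0.015) and 1.19 for *SOX9* (SE 0.20, 2.28-fold, edgeR adjusted p = 0.019). The same 4 members had an unadjusted p under 0.05, as had 4862 of the 18924 genes tested, and limma called no member. DESeq2 called these 4, with adjusted p from 7.1e-12 (*SOX10*) to 1.8e-06 (*SOX9*), and 3.54% of all genes. edgeR called them as well when only the P5 fractions were fitted, with adjusted p of 0.0093 or 0.0094 (1.29% of all genes), and at an FDR of 5% (2.63% of all genes). The other members had log2 differences of -0.62 (*SOX8*, SE 0.29, lower in 3 of 3), 0.35 (*SOX5*, SE 0.24), 0.26 (*SOX11*, SE 0.24), -0.04 (*SOX12*, SE 0.08) and -0.01 (*SOX4*, SE 0.30). The median over the members was 0.26, against -0.01 over all genes. In the same comparison the median log2 difference was 1.62 over the 13 neural crest factors, 1.34 over the 14 glial and melanocyte genes tested, 0.79 over 10 cartilage genes, 0.16 over 12 neuronal genes and -1.26 over 6 other SOX genes, with none called. *SOX2* was at 92.6, 71.5 and 32.8 TPM in MES and at 254, 208 and 178 TPM in EPI.

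**Figure D4:**
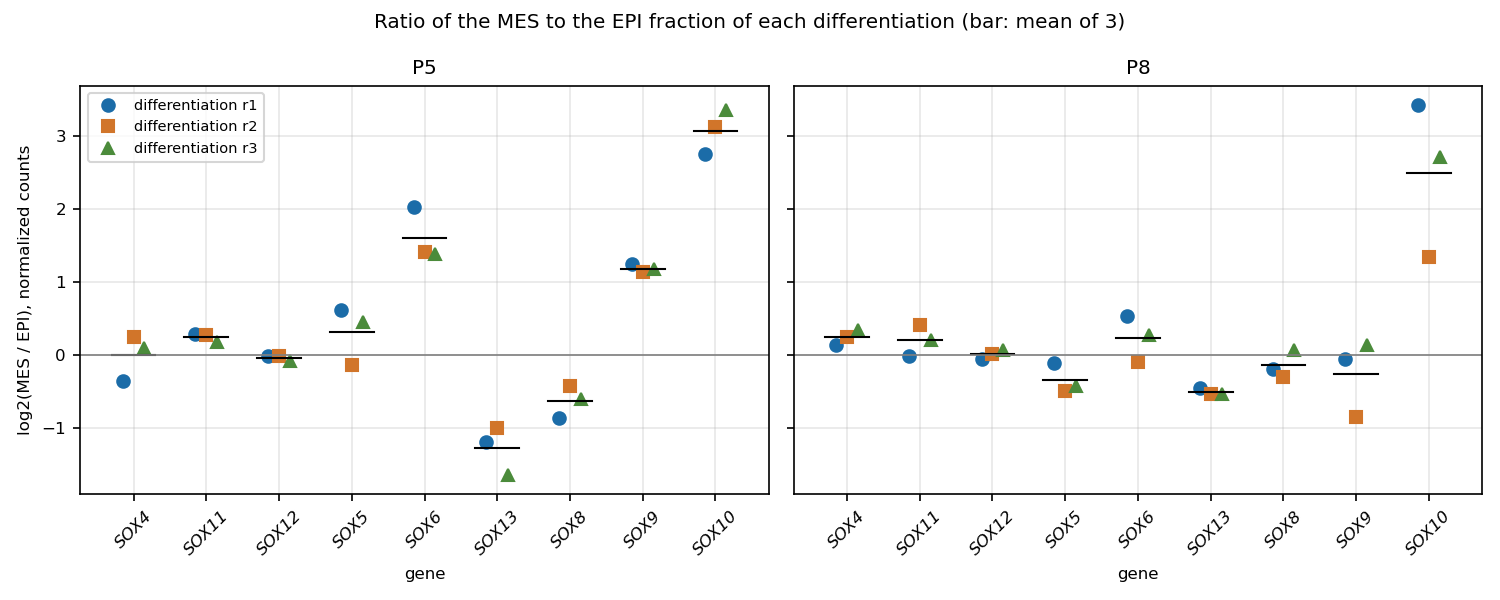
Log2 ratio of normalized counts in MES to those in EPI (y) for each gene (x), with 1 point for each differentiation and a bar at their mean, at P5 (left) and P8 (right). At P5 *SOX10*, *SOX6* and *SOX9* lie above zero and *SOX13* below it in 3 of 3 differentiations, and at P8 *SOX10* is still above zero in each.

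At P8 *SOX10* was again higher in each MES library than in its EPI library. No member and no gene was called (0% higher and 0% lower). 2 members had an unadjusted edgeR p under 0.05, as had 2275 of the 18924 genes tested. DESeq2 called 1 member (and 0.28% of all genes) and limma none. *SOX10* was at 3.54, 2.99 and 8.21 TPM in MES and at 0.41, 1.08 and 1.20 TPM in EPI (log2 2.49, SE 0.42, edgeR adjusted p = 0.24, DESeq2 adjusted p = 2.5e-06). *SOX13* was lower in MES in 3 of 3 differentiations (log2 -0.51, SE 0.18, edgeR adjusted p = 0.35). *SOX6* (0.21, SE 0.21) and *SOX9* (-0.27, SE 0.20) did not keep a direction in all differentiations. The change of the MES to EPI difference from P5 to P8 was tested as an interaction. No member and no gene was called (0% in either direction), and DESeq2 and limma called no member. DESeq2 called 1 of the 18924 genes. 3 members had an unadjusted edgeR p under 0.05, as had 1125 of the 18924 genes tested. The 3 members were *SOX9* (log2 -1.46, SE 0.28), *SOX6* (-1.41, SE 0.29) and *SOX13* (0.80, SE 0.26), each with an edgeR adjusted p of 0.83. DESeq2 gave an adjusted p of 0.01 for *SOX9*, 0.035 for *SOX6* and 0.43 for *SOX13*.

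Within EPI, 1 member was called between P5 and P8, where 0.233% of all genes were called higher and 0.0317% lower. *SOX9* rose by 2.07 (SE 0.21, n = 3 and 3, 4.20-fold, edgeR adjusted p = 0.0068), from 9.06, 19.0 and 31.1 TPM to 28.0, 102 and 115 TPM. The values of the passages overlapped, and each differentiation was higher at P8. DESeq2 called 3 members, and 3.2% of all genes. The edgeR fit with the block called 50 of the 18924 genes tested, and the fit without it 0. The edgeR call was lost without the block (log2 2.14, edgeR adjusted p = 0.14), with only the EPI libraries in the fit (2.04, edgeR adjusted p = 0.075), with all 47 libraries in 1 fit (2.16, edgeR adjusted p = 0.15) and without r2 (1.79, edgeR adjusted p = 0.15) or r3 (2.12, edgeR adjusted p = 0.092). *SOX5* (log2 1.40, SE 0.25, edgeR adjusted p = 0.019) and *SOX13* (-0.98, SE 0.18, edgeR adjusted p = 0.022) did not pass, and each moved 1 way in 3 of 3 differentiations. Among the cartilage genes *COL9A3*, a collagen of cartilage, rose by 3.10 (SE 0.40, edgeR adjusted p = 0.0093), and among the glial and melanocyte genes *TYRP1* rose by 4.23 (SE 0.53, edgeR adjusted p = 0.009).

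Within MES no member was called between P5 and P8, where 0.661% of all genes were called higher and 0.122% lower. 3 members had an unadjusted edgeR p under 0.05, as had 5688 of the 18924 genes tested. DESeq2 called 1 member (and 3.93% of all genes) and limma none. *SOX6* was at 53.5, 34.1 and 42.0 TPM at P5 and at 12.6, 20.3 and 22.6 TPM at P8, with no overlap (log2 -1.26, SE 0.21, edgeR adjusted p = 0.012, DESeq2 adjusted p = 6.1e-07). *SOX9* had a log2 difference of 0.61 (SE 0.20, edgeR adjusted p = 0.083) and *SOX5* of 0.69 (SE 0.25, edgeR adjusted p = 0.10). *TYRP1* rose by 3.91 (SE 0.53, edgeR adjusted p = 0.0072).

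The whole cultures were set beside their fractions. At P5 the whole-culture TPM lay between those of its EPI and MES fractions in 20 of 27 cases (9 genes in 3 differentiations), and in all cases for *SOX5*, *SOX6*, *SOX13*, *SOX9* and *SOX10*. At P8 it did so in 8 of 27. The P8.r3 culture had 15.2 TPM of *SOX10*, more than either of its fractions (1.20 and 8.21 TPM), and 169 TPM of *SOX9*, against 115 and 130 TPM.

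Transcript lengths were read from the deposited mean length, which RSEM weights by abundance. *SOX4*, *SOX11*, *SOX12* and *SOX9* had the same length in every library (5852, 8719, 4630 and 3935 bases). In libraries with at least 50 expected counts the length ran from 1991 to 4196 bases for *SOX5* (47 libraries), from 2250 to 5442 for *SOX6* (40 libraries), from 2156 to 2944 for *SOX13* (47), from 3080 to 3293 for *SOX8* (47) and from 2154 to 2879 for *SOX10* (32). In these libraries a TPM value of *SOX5* or *SOX6* thus depends on the estimated mix of transcripts by up to 2.11-fold and 2.42-fold. With fewer counts the *SOX6* length varied more, at 655 bases in 36h.r1 and 6589 in t0.r3. The edgeR and DESeq2 tests above, made on counts, do not use the length, but limma, run on log2(TPM + 1), does.

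The upstream 250 bases of the SOXD genes are shown because members of this group went opposite ways. They are RefSeq promoters on GRCh38.p14, printed on the strand of the gene, with capitals where the letters ACAAAG or ACAATG (SOX) or CTTTGA (TCF/LEF) occur on either strand.
SOX5: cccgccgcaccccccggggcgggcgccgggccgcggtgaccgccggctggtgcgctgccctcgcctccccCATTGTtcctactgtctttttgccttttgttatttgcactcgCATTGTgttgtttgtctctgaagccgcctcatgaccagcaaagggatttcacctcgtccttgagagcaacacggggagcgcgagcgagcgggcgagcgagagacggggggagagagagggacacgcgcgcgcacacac
SOX6: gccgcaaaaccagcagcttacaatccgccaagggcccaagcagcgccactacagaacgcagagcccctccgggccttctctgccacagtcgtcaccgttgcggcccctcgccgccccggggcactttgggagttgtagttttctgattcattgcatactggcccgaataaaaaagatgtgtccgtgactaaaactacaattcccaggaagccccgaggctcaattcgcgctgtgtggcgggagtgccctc
SOX13: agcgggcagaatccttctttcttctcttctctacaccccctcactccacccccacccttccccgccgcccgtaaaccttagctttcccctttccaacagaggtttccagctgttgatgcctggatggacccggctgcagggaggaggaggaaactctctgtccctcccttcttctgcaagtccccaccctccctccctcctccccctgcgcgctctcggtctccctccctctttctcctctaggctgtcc
They lie at chr12:24562492-24562741 for *SOX5*, chr11:16738478-16738727 for *SOX6* (the first of 5 listed starts) and chr1:204072865-204073114 for *SOX13*. Promoter sequences were matched for 5 of the 9 genes. *SOX5* held 2 SOX matches, and *SOX6* at this start and *SOX13* none. Of the other *SOX6* starts, 1 held 4 SOX matches, 1 held 1 and 2 held none, and their GC content was 29.7% to 41.7%. Over 35116 promoters of 300 bases, 24.5% held a SOX match and 12.9% a TCF/LEF match. The GC content was 63.7% for *SOX5*, 60.0% for *SOX6* and 62.7% for *SOX13*, with a median of 58.7% over all promoters.

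The genes whose condition means were most like each member were listed by Pearson's r of mean log2 CPM (counts scaled to library size) over the 16 conditions, among 12810 genes. The conditions share differentiations, and the values are a description. For *SOX13* they were *RAB3C* (0.986), *HDDC3* (0.976) and *CXADR* (0.975). For *SOX6* they were *HOXA10-AS* (0.982), *RHOJ* (0.979) and *UBE2E3* (0.977), and for *SOX5* *HHIP-AS1* (0.982), *ZNF271P* (0.980) and *ZC3H12B* (0.978). The SOXC genes had *TRIB1* (0.947), *FAM171B* (0.915) and *CNOT8* (0.912) for *SOX4*, *CRAMP1* (0.959), *ID1* (0.944) and *TCF12* (0.941) for *SOX11*, and *LSM14B* (0.940), *SLC25A12* (0.939) and *RNF150* (0.934) for *SOX12*. The SOXE genes had lower values, *APMAP* (0.928), *DPY19L2P1* (0.908) and *CIAO1* (0.902) for *SOX8*, *FAM3C* (0.895), *FAM3C2* (0.881) and *CHRND* (0.881) for *SOX9*, and *ABCC2* (0.818), *C1S* (0.807) and *ZNF462* (0.787) for *SOX10*. Among the members themselves, *SOX11* and *SOX13* had the most negative r, -0.84.

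Of 10 other SOX genes, 8 were tested between t0 and P8 and 1 was called lower, where 8.03% of all genes were called lower and 7.38% higher, so the count is near the background. *SOX3*, a SOXB1 factor of early neural cells, fell by 4.26 (SE 1.02, edgeR adjusted p = 0.0014).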

How the data were processed

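Polyadenylated RNA was sequenced as 75-base single-end reads. Per the labels, the submitters' processing notes name cutadapt 1.16, STAR 2.5.2b, RSEM 1.3.0 and GRCh38. The annotation release and strand setting are not given in the sources used here. The authors deposited RSEM expected counts per gene, of which 9.33% were not whole, TPM, and a mean transcript length; replicates were not pooled. The length can move TPM of genes with several transcripts.

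Expected counts were rounded and tested with edgeR 4.0.16 (R 4.3.3; TMM, filterByExpr, quasi-likelihood test), with 35 whole-culture libraries in 1 fit and 12 fractions in another, and the differentiation as a block, since the series text says each experiment held all time points. Deviations from the condition means correlated at 0.14 between libraries of the same number and -0.07 otherwise (whole cultures), and at 0.42 and -0.21 (fractions). Deviations within a condition cancel out, so the second value of each pair largely follows from the first and adds little to it. Alternatives used DESeq2 1.42.0 and limma 3.58.1 on log2(TPM + 1). The fit was tested on simulated counts. Symbols came from GENCODE 29, matching 57447 of 58051 genes. Named genes were all members, the 3 most alike genes of each, and from each list up to 4 called genes with the largest change. Outside this rule *ACAN*, *SOX2*, the endothelial genes and the overlapping genes *C11orf58* and *POLR2F* were named as well. Members and lists were chosen with earlier results of these data known. Replicate libraries are separate differentiations of 1 line. No pair of replicates agreed within sampling noise (lowest chi-square per gene 32.7).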

Additional observations from a re-analysis of the deposited data

How the results depend on the processing

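Of 1341 values of single genes under the alternatives, 1220 kept their direction and their side of the thresholds, 43 newly passed, 22 no longer passed, and 56 changed sign, none of which was called in either fit. The counts of members called were within 1.5 times the main count in 122 of 158 cases. The replicate block is the pairing of samples by differentiation. It mattered at P9 and P10 against P8 (2 members called, 0 without it) and for *SOX9* within EPI (1 called, 0 without it). It also mattered for *SOX13* at P8 against t0 (called, edgeR adjusted p = 0.012 without it), and changed no other call of a member. Over all genes, the calls went from 270 with the block to 31 without it at P9 and P10 against P8. Within EPI they went from 50 to 0, and at P8 against t0 from 3335 to 3218.

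At P1 against 36h (0 called) DESeq2, all 47 libraries in 1 fit, an FDR of 5% and leaving out P1.r1 each gave 1, and leaving out each differentiation gave 0 to 2. At P3 against P1 (0 called) DESeq2, all 47 libraries and an FDR of 5% each gave 1, and leaving out a differentiation 0 to 3. At P9 and P10 against P8 (2 called) DESeq2 and an FDR of 5% each gave 3. For that comparison no filter on low counts gave 1, the compared libraries alone 0, and leaving out replicates or single libraries 0 to 4. At P8 against t0 (4 called) leaving out a differentiation gave 2 to 4. At P5 MES against EPI (0 called) DESeq2, the compared libraries alone and an FDR of 5% gave 4, and no filter 3. At P8 MES against EPI (0 called) DESeq2 gave 1. For EPI P8 against P5 (1 called) DESeq2 gave 3, no filter and an FDR of 5% each 2, all 47 libraries and the compared libraries alone each 0, and leaving out a differentiation 0 to 2. For MES P8 against P5 (0 called) DESeq2, no filter and an FDR of 5% each gave 1. The cause was not tested. Leaving out P1.r1 or P8.r3 was chosen after seeing the data. Where the share or number of all genes called by a fit is not given above, its count of members is shown without a background.

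The changes of sign belong to 34 differences that were not called. Over the fits that left out a differentiation or a library, log2 differences ranged as follows. For 36h against t0 they were *SOX5* -0.05 to 1.04, *SOX6* -0.17 to 1.06, *SOX8* -0.25 to 0.41. For P1 against 36h they were *SOX8* -0.10 to 0.95, *SOX9* -1.42 to 1.55, *SOX4* -0.51 to 0.06, *SOX11* -0.13 to 0.13. For P3 against P1 they were *SOX9* -0.81 to 2.20, *SOX4* -0.15 to 0.98, *SOX13* -0.48 to 0.55, *SOX10* -0.55 to 0.94. For P5 against P3 they were *SOX4* -0.53 to 0.10, *SOX5* -0.78 to 0.12, *SOX8* -0.10 to 0.11. For P8 against P5 they were *SOX10* -1.26 to 0.09, *SOX8* -0.62 to 0.45, *SOX12* -0.11 to 0.06, *SOX4* -0.34 to 0.28. For P9 and P10 against P8 they were *SOX12* -0.05 to 0.10. For P8 against t0 they were *SOX10* -1.21 to 1.04. For P5 MES against EPI they were *SOX4* -0.18 to 0.19. For P8 MES against EPI they were *SOX9* -0.49 to 0.05, *SOX12* -0.03 to 0.04. For EPI P8 against P5 they were *SOX4* -0.43 to 0.19, *SOX11* -0.43 to 0.06, *SOX6* -0.12 to 0.35, *SOX10* -0.73 to 0.06. For MES P8 against P5 they were *SOX11* -0.50 to 0.12, *SOX12* -0.13 to 0.05, *SOX4* -0.20 to 0.56, *SOX8* -0.26 to 0.58. For MES against EPI, P8 minus P5 they were *SOX11* -0.13 to 0.06, *SOX10* -1.25 to 0.03, *SOX12* -0.01 to 0.09. With DESeq2 size factors in edgeR the value was -0.03 for *SOX9* (P3 against P1). With DESeq2 with the block the value was -0.03 for *SOX9* (P3 against P1). With all 47 libraries in one fit the value was -0.18 for *SOX9* (P3 against P1), 0.05 for *SOX4* (EPI P8 against P5). Without the replicate block the value was 0.07 for *SOX10* (P8 against P5), 0.02 for *SOX4* (P5 MES against EPI), 0.16 for *SOX4* (EPI P8 against P5). With compared libraries alone the value was -0.09 for *SOX8* (P8 against P5). With limma on log2(TPM + 1) the value was -0.11 for *SOX8* (P8 against P5), -0.03 for *SOX4* (P8 against P5). The cause was not tested.

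On normalized counts in place of TPM the span of condition means moved by less than the spread of replicates for each of the 9 genes, but the highest condition changed for *SOX5* (P8 to P8 EPI), *SOX12* (P6 to P7) and *SOX8* (P5 EPI to P2), and the lowest for *SOX13* (P9 to P10). On simulated counts the P5 fraction test called 47% of 2-fold and 98% of 4-fold changes, and the P8 against P5 test 19% and 87%. The real P5 fraction fit called 0 of 18924 genes, so the simulation does not stand for its power. In the simulation most 2-fold changes of whole cultures were missed, and the real P8 against P5 fit called 2 of 21649 genes. The effect of the number of differentiations was not tested.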
